A study of Rattus norvegicus with 44 samples.

Results

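Kidneys of rats given Enalapril alone (n = 9) were compared with kidneys of rats given Compound 1 alone (n = 12), gene by gene, to show where a drug that lowers the formation of angiotensin II and a stimulator of soluble guanylate cyclase (sGC) left different amounts of RNA. These 21 animals were 9 and 12 of 44, chosen by their treatment label and not by any measured value, and all 44 stood in the same table of FPKM, a fragment count divided by transcript length and by the library's mapped fragments. Every animal was a male obese ZSF1 rat, a hybrid that carries the Lepr fa and Lepr cp alleles and develops obesity, diabetes and progressive kidney disease, and every animal carried a blood pressure transmitter. Drugs were mixed into the feed from 22 weeks of age for 6 months. The Enalapril group received 3 mg/kg/day, and the Compound 1 group received 1 and later 3 mg/kg/day. The other 23 animals received unmedicated feed (Vehicle, n = 11) or both drugs together, with 3 mg/kg/day of Enalapril and 1 mg/kg/day of Compound 1 (Combination, n = 12). With 1 regimen per drug, a difference between the drugs and a difference between their doses cannot be told apart.

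Angiotensin II constricts the efferent arteriole of the glomerulus, raises sodium reabsorption and is known to favour scarring of the kidney through growth factors of the TGF beta family. Nitric oxide acts through the other route. It binds the haem of sGC, a dimer of an alpha and a beta subunit, which then forms cyclic GMP, and cyclic GMP relaxes vascular smooth muscle. A stimulator such as Compound 1 makes sGC respond more strongly to the nitric oxide that is present. Both routes lower blood pressure, and transcripts of scarring, tubular injury, immune cells, tubular transport and the 2 signalling routes were therefore examined.

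The RNA was from a piece of the right kidney of each animal. All 11 defining transcripts of proximal tubule, thick ascending limb, distal convoluted tubule, collecting duct, podocyte and endothelium were found in every animal, the lowest at 3.52 FPKM. Depth relative to the median library ran from 0.814 to 1.38 with Enalapril and from 0.847 to 1.30 with Compound 1, and the absolute depth is unknown. The 13 mitochondrially encoded genes took 23.2 to 43.3% of all FPKM with Enalapril and 24.0 to 38.1% with Compound 1 (means 32.8 ± 5.90% and 30.2 ± 3.96%, exact two-sided permutation p = 0.244). Compound 1 animals 3001 and 3105 correlated least with their own group, with a median r across genes of 0.959 and 0.952, against 0.967 to 0.977 for the Enalapril animals. Proximal tubule transcripts were lowest in animal 3001, and those of the inner medulla were highest in animal 3105.

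Enalapril left mostly lower levels than Compound 1. Of 13482 genes with an FPKM above 1 in at least 9 animals, 255 were called lower with Enalapril (1.89%) and 44 higher (0.326%), a call being an adjusted p under 0.05 from limma with a fold change above 1.5 or under 0.66. More than 2-fold differences numbered 48 lower and 5 higher. Without the fold threshold 1471 genes were lower and 351 higher. The median log2 difference over all genes, Enalapril minus Compound 1, was -0.07, and after a median-of-ratios rescaling, which moved the groups by 0.08 relative to each other, 155 genes were lower (1.15%) and 74 higher (0.549%). The share of higher genes among the calls thus went from 14.7 to 32.3%, and 199 genes, 155 lower and 44 higher, were called both ways. The number of higher genes was 22 without Compound 1 animal 3001 and 23 without animals 3001 and 3105, and the number of lower genes ran from 177 without animal 3001 to 369 without animal 3011.

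**Figure D1:**
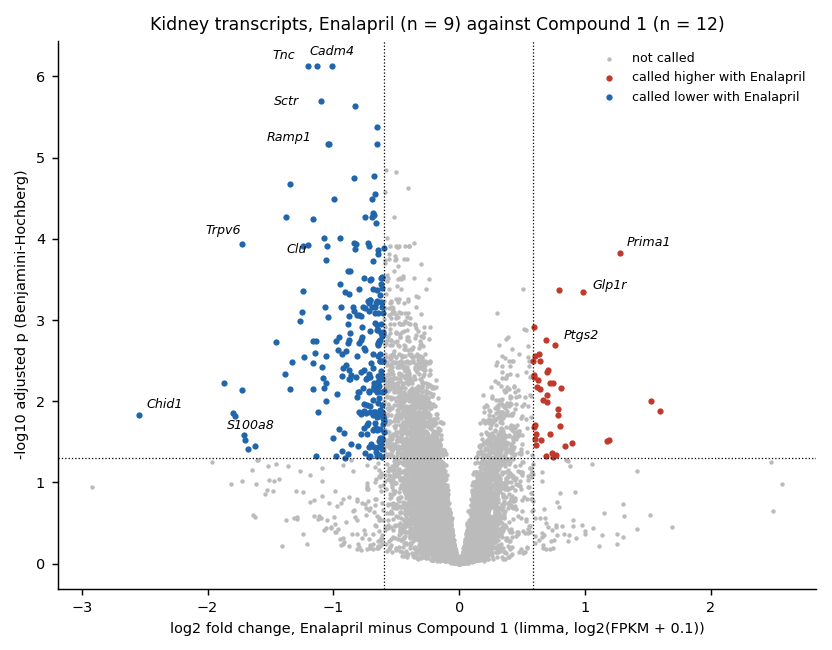
Log2 fold change of each of the tested genes, Enalapril minus Compound 1 (x axis), against -log10 of the adjusted p from limma (y axis), with the fold and p thresholds as dotted lines. Blue points are the 255 genes called lower with Enalapril and red points genes called higher; 1 gene that is not reported here is left out. Tnc and Cadm4 stand near the top on the lower side, and Prima1 on the higher side.

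Among the largest higher genes with a symbol was Prima1, the membrane anchor of acetylcholinesterase. Its FPKM ran from 8.22 to 25.2 with Enalapril (median 18.5) and from 4.60 to 18.2 with Compound 1 (median 6.01). The groups overlapped through a few animals, and 10 of 12 Compound 1 animals lay below the lowest Enalapril animal (log2 difference 1.28, SE 0.22, adjusted p = 0.00015). Glp1r, the receptor for glucagon-like peptide 1, ran from 1.06 to 1.71 FPKM with Enalapril (median 1.41) and from 0.248 to 1.01 with Compound 1 (median 0.710). It was the only called gene higher with Enalapril whose ranges did not overlap (log2 difference 0.98, SE 0.19). Tac3, which encodes the tachykinin neurokinin B, was at 1.81 ± 0.773 and 0.978 ± 0.492 FPKM, and its call was lost on dropping any 1 of 8 animals among the 21 (Enalapril 2005, 2007, 2008 or 2009, Compound 1 3007, 3009, 3010 or 3105), with log2 differences down to 0.76. The others of this size were the olfactory receptor gene Olfr1442 and the entries LOC108349752, AABR07044470.1 and AABR07001025.1, with log2 differences of 1.19, 1.60, 1.52 and 1.18, all at group means under 5 FPKM. Olfr1442 lost its call without Enalapril animal 2005 or 2007 or Compound 1 animal 3001, where its smallest log2 difference was 0.95, and AABR07001025.1 without Enalapril animal 2001, 2008 or 2011 or Compound 1 animal 3001, 3008 or 3103, where its smallest was 0.98.

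On the lower side, Trpv6, the calcium entry channel of the distal tubule, had the clearest separation of the largest differences. It ran from 1.12 to 2.22 FPKM with Enalapril (median 1.71) and from 1.35 to 12.5 with Compound 1 (median 5.003). Of the 12 Compound 1 animals, 11 lay above the highest Enalapril animal (log2 difference -1.73, SE 0.29, adjusted p = 0.00012). Chid1, a secreted protein with a chitinase-like domain, had the largest difference by fold (-2.55, SE 0.72) and was low and scattered: 0.295 ± 0.373 FPKM with Enalapril, where the lowest animal was near 0, and 2.07 ± 1.43 with Compound 1. Pclaf, which binds the replication clamp PCNA, was at 0.687 ± 0.653 and 1.78 ± 1.06 FPKM. S100a8, a calcium-binding protein of neutrophils and monocytes, was at 0.528 ± 0.326 and 2.58 ± 4.29 FPKM. Its spread with Compound 1 came from animals up to 16.1 FPKM, and its call ended without Enalapril animal 2005, 2009 or 2010 or Compound 1 animal 3001, with an adjusted p of up to 0.0793. The entries AABR07051551.2, AABR07061378.1, AABR07065815.2 and AABR07051564.1 had log2 differences of -1.87, -1.79, -1.78 and -1.71, the last of them lost without Enalapril animal 2001, 2007 or 2009 or Compound 1 animal 3001 or 3008 (nearest to 0 at -1.46).

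Only 6 of the called genes had ranges that did not overlap, against 24 of all 13482 genes tested (0.178%). Beside Glp1r they included Sctr, C4b, Rtn2 and LOC103689965, all lower with Enalapril and named here, with C4b aside, after their values were seen. Sctr, the receptor for secretin, ran from 2.47 to 3.72 FPKM with Enalapril (median 2.86) and from 4.06 to 12.2 with Compound 1 (median 6.70). The lowest Compound 1 animal was thus just above the highest Enalapril animal (log2 difference -1.10, SE 0.14, adjusted p = 2e-06). Cadm4, a cell adhesion molecule also named after its values were seen, overlapped through 1 Compound 1 animal (4.47 ± 0.664 and 10.3 ± 3.11 FPKM, log2 difference -1.13, SE 0.13, adjusted p = 7.4e-07).

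The animals within a group differed in a common way across these genes. Compound 1 animal 3011 was the lowest of its group in 166 of the 255 genes called lower with Enalapril (65.1%), against 25.4% of all tested genes, and was the highest in 0 of them. Compound 1 animal 3001 was the highest of its group in 139 of them (54.5%, against 14.0% of all genes). Enalapril animal 2103 was the highest of its group in 116 (45.5%, against 21.3%). These genes were chosen by the contrast between the groups, and the shares describe only how the animals of a group were ordered.

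Of 37 gene lists, 13 held a gene called lower, 4 a gene called higher and 1 of these both, and 21 held none. Together they held 51 of the 255 lower genes and 5 of the higher genes. With 1 further list that is not reported here, they covered 715 of the 13482 tested genes.

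**Figure D2:**
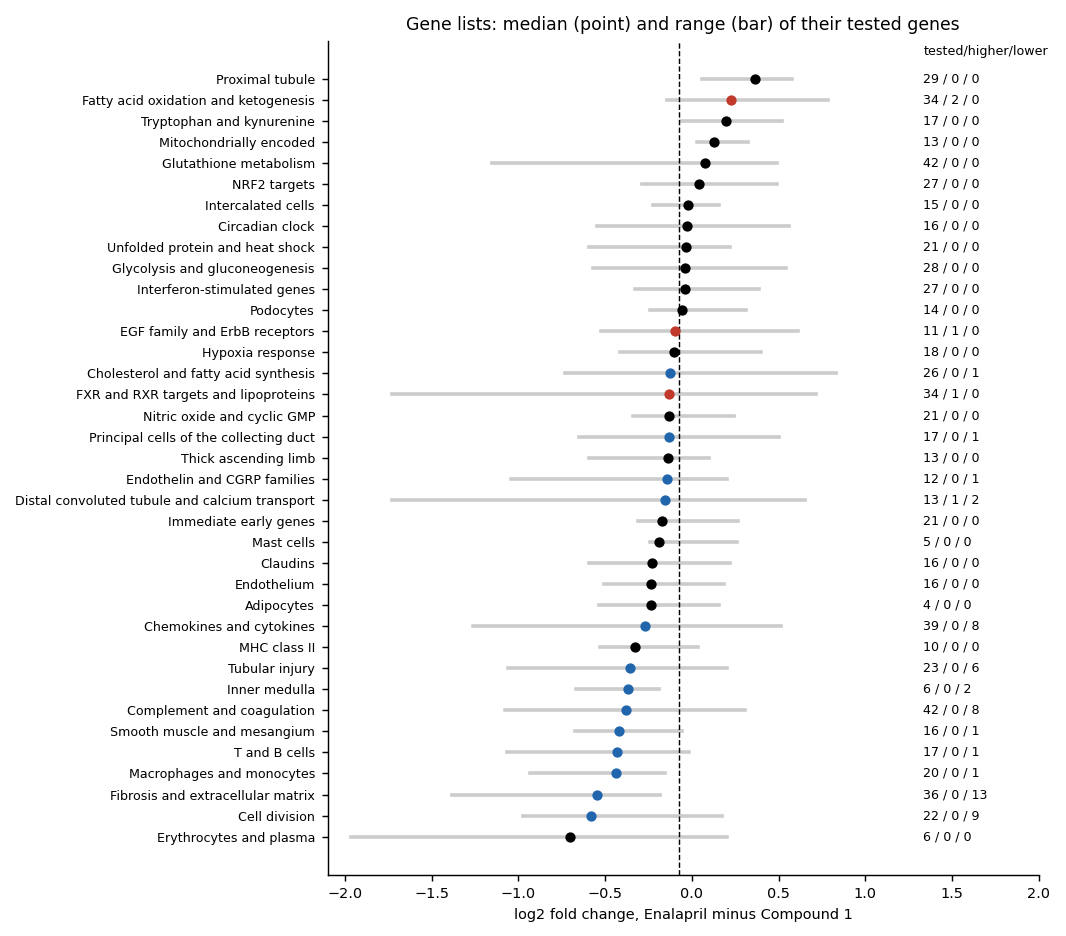
Median log2 fold change, Enalapril minus Compound 1, of the tested genes of 37 lists (points; grey bars run from the lowest to the highest gene), with the median of all genes as a dashed line. Blue points have at least 1 gene called lower, red points have genes called higher and none lower, and the numbers at the right give the genes tested, called higher and called lower. Fibrosis, cell division and erythrocytes and plasma lie to the left of the line at -0.55, -0.58 and -0.70, and the proximal tubule to the right at 0.36.

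Genes of fibrosis and extracellular matrix were lower with Enalapril than with Compound 1, with 13 of 36 called lower, 0 higher and 23 not called. All 36 had a negative log2 difference, and their median was -0.55 against -0.07 for all genes. Tnc (tenascin C), a matrix protein of injured and remodelling tissue, ran from 2.02 to 4.40 FPKM with Enalapril (median 2.78) and from 3.80 to 10.4 with Compound 1 (median 7.64). All but 1 of the 12 Compound 1 animals lay above the highest Enalapril animal (log2 difference -1.20, SE 0.15, adjusted p = 7.4e-07). Vim, the intermediate filament of mesenchymal cells, ran from 113 to 172 FPKM (median 154) and from 169 to 379 (median 244), again with 11 of 12 animals above. Thbs1, which activates latent TGF beta, was at 26.8 ± 5.59 and 43.4 ± 9.30 FPKM (log2 difference -0.69, SE 0.11), and Col15a1, a basement membrane collagen, at 9.24 ± 1.96 and 16.6 ± 3.92 FPKM (log2 difference -0.82, SE 0.14). Fn1 (fibronectin), named after its values were seen like the next gene, was at 44.8 ± 8.59 and 72.7 ± 15.1 FPKM. Timp1, an inhibitor of matrix proteases, was at 42.5 ± 5.83 and 68.6 ± 14.6 FPKM. Other called members were Mmp7, Postn, Lox, Tgfb2, Col1a2 and Col1a1. Col1a1, the main chain of type I collagen, had a log2 difference of -0.63 and lost its call without Enalapril animal 2001 or 2005 or Compound 1 animal 3001, 3007 or 3012 (nearest to 0 at -0.58). After rescaling 9 of the 36 were lower. When the inner medulla markers were entered as a covariate, only Tnc was, and the median of the list was -0.24.

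In a piece of whole kidney, fewer cells of a type and less RNA per cell cannot be told apart, which holds for each list of cells. Markers of smooth muscle and mesangium moved with the matrix genes: all 16 had a negative log2 difference, with a median of -0.42, and their mean log2 level was 3.49 to 3.75 with Enalapril and 3.64 to 4.19 with Compound 1. Of these only Tagln, an actin-binding protein of smooth muscle, was called (91.5 ± 15.6 and 147 ± 33.7 FPKM), and not after rescaling. The part of these cells in the matrix genes was not tested.

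**Figure D3:**
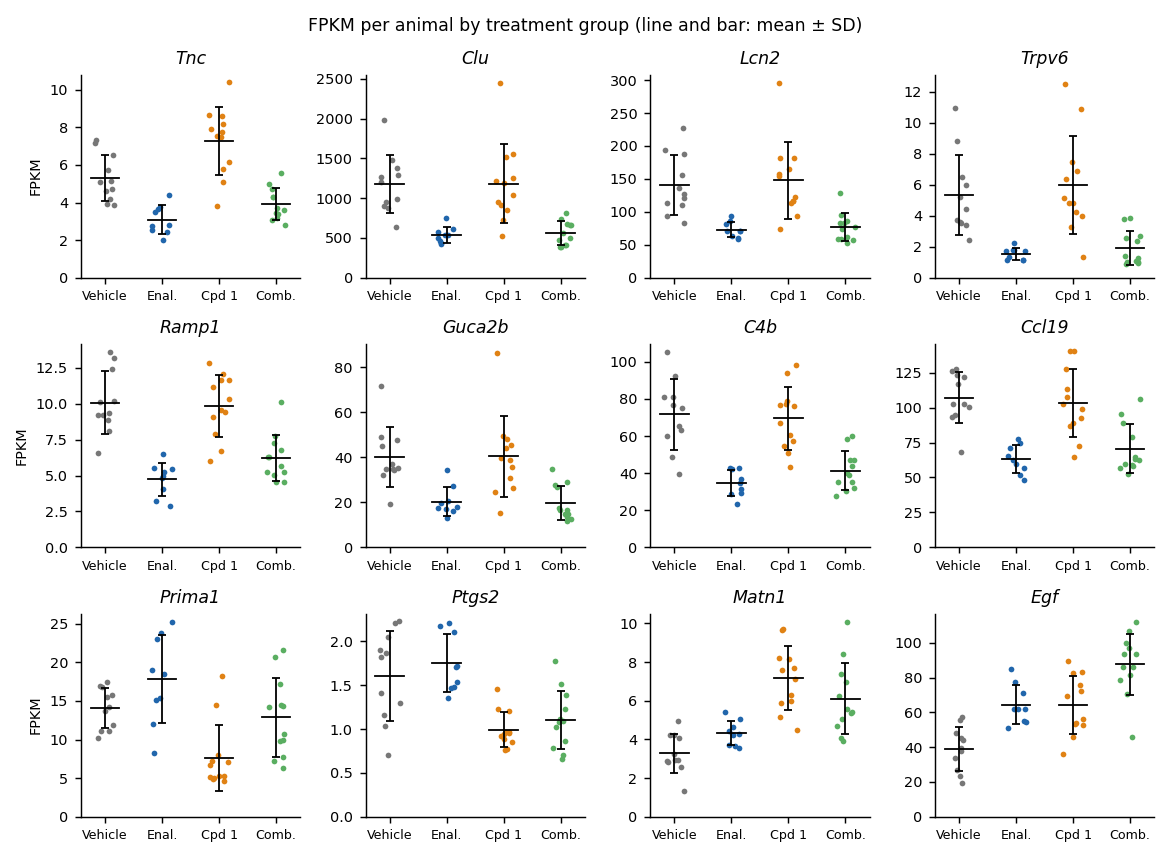
FPKM of 12 genes in each animal (points) of the Vehicle, Enalapril, Compound 1 and Combination groups, with black lines for the mean ± SD. Tnc, Clu, Lcn2, Trpv6, Ramp1, Guca2b, C4b and Ccl19 are lower with Enalapril than with Compound 1; Prima1 and Ptgs2 are higher, Matn1 is highest with Compound 1, and Egf has means of 64.5 and 64.3 FPKM in the 2 single drug groups.

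Transcripts of tubular injury were lower with Enalapril in 6 of 23 cases, higher in 0 and not called in 17, with a median log2 difference of -0.36. After rescaling 3 of the 23 were lower, and with the inner medulla covariate 0 were, with a median of -0.08. Clu (clusterin), a secreted chaperone of stressed tubules, ran from 421 to 753 FPKM with Enalapril (median 534) and from 524 to 2450 with Compound 1 (median 1114). Lcn2, which encodes NGAL, a protein that damaged tubules release into urine, ran from 59.2 to 93.3 FPKM (median 70.6) and from 74.7 to 296 (median 138). For Lcn2 11 of 12 Compound 1 animals lay above the highest Enalapril animal, and for Clu 10 did. The log2 differences were -1.06 (SE 0.19) for Clu and -0.95 (SE 0.17) for Lcn2, with adjusted p of 0.00018 and 0.00036. Spp1 (osteopontin) ran from 1826 to 3059 FPKM with Enalapril (median 2212) and from 2159 to 6286 with Compound 1 (median 4163), a log2 difference of -0.83 (SE 0.14). Havcr1, which encodes kidney injury molecule 1 of the proximal tubule, was at 21.9 ± 3.23 and 34.9 ± 8.60 FPKM. Its log2 difference of -0.64 (SE 0.14) moved to -0.59, inside the fold threshold, without Enalapril animal 2008 or Compound 1 animal 3008. Krt18, a keratin of simple epithelia, was at 21.3 ± 2.53 and 34.5 ± 10.4 FPKM and lost its call without Compound 1 animal 3001 (-0.57). Cst3 (cystatin C), the other transcript of a urinary marker in the study, was not called, at 749 ± 107 and 815 ± 81.9 FPKM (log2 difference -0.13, 95% interval -0.30 to 0.04).

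Markers of macrophages and of lymphocytes held 1 call in each list (5% and 5.88%), against 1.89% of all genes called lower. Of 20 markers of macrophages and monocytes, all 20 had a negative log2 difference (median -0.44) and 1 was called, Cd163, a scavenger receptor for haemoglobin. It ran from 0.411 to 1.03 FPKM with Enalapril (median 0.583) and from 0.632 to 2.65 with Compound 1 (median 1.49), with 8 of 12 animals above the highest Enalapril animal (log2 difference -0.93, SE 0.23, adjusted p = 0.0049). Of 17 markers of T and B cells, all 17 were negative (median -0.43) and 1 was called, Cd79b, a chain of the B cell receptor, at 2.31 ± 1.05 and 4.77 ± 1.62 FPKM (log2 difference -1.07, SE 0.21). With the inner medulla covariate 0 of either list were called, and the medians were -0.10 and -0.06. The summed level ran from 783 to 1558 FPKM with Enalapril and from 1011 to 2272 with Compound 1 for the macrophage list, and from 72.9 to 99.2 and from 74.0 to 148 for the lymphocyte list. No marker of either list with a deposited entry was at 0 in all 21 animals. The part of these cells in the results was not tested. MHC class II genes (10 tested), mast cell markers (5) and interferon-stimulated genes (27) held 0 calls, with medians of -0.33, -0.19 and -0.04. Their counts at an unadjusted p under 0.05 were 9, 1 and 2. The counts were 19 of 20 for macrophages and monocytes and 11 of 17 for T and B cells, against 3706 of all 13482 genes.

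Chemokines and cytokines were lower in 8 of 39 cases and higher in 0, with a median of -0.27. After rescaling 6 were lower, and with the inner medulla covariate 0 were, with a median of -0.02. Ccl19, which draws lymphocytes and dendritic cells through CCR7, ran from 48.2 to 77.6 FPKM with Enalapril (median 62.5) and from 64.8 to 141 with Compound 1 (median 101). The ranges overlapped, with 10 of 12 Compound 1 animals above the highest Enalapril animal (log2 difference -0.69, SE 0.13, adjusted p = 0.00042). Cxcl6, a neutrophil attractant, was at 0.771 ± 0.252 and 1.65 ± 0.644 FPKM, Ccl5, an attractant of T cells, at 6.65 ± 1.97 and 10.8 ± 2.80 FPKM, and Il24, a cytokine of the interleukin 10 family, at 4.40 ± 1.71 and 7.997 ± 2.74 FPKM. Their log2 differences were -0.96 (SE 0.21), -0.71 (SE 0.17) and -0.87 (SE 0.21). The other called members were Il19, Ccl7, Ccl21 and Il1b, the last of them lost without Enalapril animal 2001 or 2010 or Compound 1 animal 3001 (nearest to 0 at -0.52). Named after their values were seen, Foxp3, the transcription factor of regulatory T cells, was at 0.649 ± 0.301 and 1.43 ± 0.544 FPKM, and Tnfrsf4, a costimulatory receptor of activated T cells, at 1.01 ± 0.504 and 2.41 ± 0.861 FPKM, with log2 differences of -1.06 (SE 0.24) and -1.25 (SE 0.25).

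Complement and coagulation genes were lower with Enalapril in 8 of 42 cases and higher in 0, with a median of -0.38. After rescaling 6 were lower, and with the inner medulla covariate 0 were, with a median of -0.12. C4b, a complement component cleaved in the classical and lectin pathways, ran from 23.4 to 42.6 FPKM with Enalapril (median 34.6) and from 43.4 to 98.1 with Compound 1 (median 71.4), so that the groups did not overlap (log2 difference -0.99, SE 0.15, adjusted p = 3.2e-05). C4a, a near-identical copy, was also called, and reads could be split between the copies. Cfi, the protease that inactivates C3b and C4b, was at 9.17 ± 2.29 and 16.4 ± 3.99 FPKM (log2 difference -0.83, SE 0.14). C3 was also called.

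All of the 3 fibrinogen chains, which liver makes in inflammation and injured kidney is also known to make, were lower with Enalapril. Fgb (beta chain) ran from 5.58 to 14.5 FPKM with Enalapril (median 9.28) and from 10.01 to 25.4 with Compound 1 (median 18.5). Fga (alpha chain) ran from 10.7 to 20.8 FPKM (median 18.4) and from 15.2 to 35.9 (median 24.7). Fgg (gamma chain), named after its values were seen, ran from 0.829 to 2.78 FPKM (median 1.38) and from 1.15 to 7.29 (median 3.13). In each case the ranges overlapped while most Compound 1 animals, 10, 10 and 8 of 12, lay above the highest Enalapril animal. The log2 differences were -0.88 (SE 0.16) for Fgb, -0.62 (SE 0.12) for Fga and -1.08 (SE 0.26) for Fgg, with adjusted p of 0.00025, 0.0006 and 0.0052. Fga was close to the fold threshold, and rescaling ended its call, as did dropping Enalapril animal 2001, 2005, 2007 or 2008 or Compound 1 animal 3010 or 3012 (nearest to 0 at -0.55). The genes lie side by side on chromosome 2. Their promoters are shown because the 3 genes moved together and because CTGGGA is the core of the element through which interleukin 6 acts on rat fibrinogen genes. The sequences are from RefSeq (build GRCr8), each the 250 bases before the start of the gene, 5′ to 3′ on the gene's strand. Capitals mark CTGGGA or its reverse complement TCCCAG, and the 3 genes lie at chr2:170671919-170672168 (plus strand), chr2:170700876-170701125 (minus strand) and chr2:170652833-170653082 (plus strand).
Fga: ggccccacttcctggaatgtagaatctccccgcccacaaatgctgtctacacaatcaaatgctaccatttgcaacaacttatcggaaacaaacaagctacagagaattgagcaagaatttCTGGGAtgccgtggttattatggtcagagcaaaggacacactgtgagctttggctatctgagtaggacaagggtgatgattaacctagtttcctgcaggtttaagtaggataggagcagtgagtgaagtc
Fgb: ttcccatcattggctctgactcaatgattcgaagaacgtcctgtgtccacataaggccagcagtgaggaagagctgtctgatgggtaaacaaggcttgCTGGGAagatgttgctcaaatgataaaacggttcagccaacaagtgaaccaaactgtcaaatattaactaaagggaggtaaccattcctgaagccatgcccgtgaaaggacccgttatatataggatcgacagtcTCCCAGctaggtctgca
Fgg: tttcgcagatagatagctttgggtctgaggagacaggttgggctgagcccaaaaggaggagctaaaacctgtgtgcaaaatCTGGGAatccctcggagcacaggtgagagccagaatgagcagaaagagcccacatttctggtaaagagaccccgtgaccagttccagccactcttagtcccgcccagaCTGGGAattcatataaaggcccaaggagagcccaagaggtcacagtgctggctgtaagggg
The letters were found in 3 of 3, once for Fga and at 2 places each for Fgb and Fgg, and in 25.7% of 33469 rat promoters of this length. The match describes the sequence and was not tested as a site.

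Cell division genes were lower with Enalapril in 9 of 22 cases, higher in 0 and not called in 13, with a median log2 difference of -0.58. Top2a, the topoisomerase that untangles replicated DNA, ran from 0.659 to 1.54 FPKM with Enalapril (median 0.880) and from 0.964 to 2.26 with Compound 1 (median 1.57). Ccna2, the cyclin of S phase and early mitosis, ran from 0.456 to 1.34 FPKM (median 0.954) and from 1.27 to 2.21 (median 1.60). The groups overlapped in both, with 6 and 9 of 12 Compound 1 animals above the highest Enalapril animal. Ccnb1, the mitotic cyclin, was at 1.60 ± 0.434 and 2.88 ± 0.691 FPKM, and Mcm5, a subunit of the replicative helicase, at 1.82 ± 0.206 and 2.93 ± 0.686 FPKM. The log2 differences were -0.77 (SE 0.16) for Top2a, -0.87 (SE 0.19) for Ccna2, -0.81 (SE 0.18) for Ccnb1 and -0.63 (SE 0.14) for Mcm5. Mcm5 lost its call without Compound 1 animal 3001 or 3008 (-0.58). The others called were Birc5, Aurkb, Ube2c, Plk1 and Mki67. Ube2c was lost without Enalapril animal 2009 (-0.56), and Mki67 without Enalapril animal 2005, 2008 or 2010 or Compound 1 animal 3001 or 3008 (nearest to 0 at -0.57). These genes were expressed at a few FPKM. After rescaling 7 of the 22 were lower, and with the inner medulla covariate 0 were, with a median of -0.28. With log2(FPKM + 1) Top2a, Ccna2, Mcm5, Ccnb1, Plk1, Mki67 and Ube2c lost their calls, while Birc5 and Aurkb were not checked.

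Genes of the G2 and M phases are known to share a pair of promoter elements, the CCAAT box, bound by NF-Y, and the cell cycle genes homology region TTTGAA, bound by the DREAM complex. RefSeq promoters (GRCr8, 250 bases before the start) were matched for 6 of the 9 called genes. CCAAT or its reverse complement ATTGG stood in 6 of 6, against 34.0% of all promoters, TTTGAA or TTCAAA in 3 of 6, against 16.2%, and both motifs in 3 of 6, against 5.87%. Among all tested cell division genes with a promoter, 13 of 17 held CCAAT and 6 of 17 TTTGAA. The promoters with both are shown, with these letters in capitals on either strand, for Birc5, a subunit of the mitotic chromosomal passenger complex, at chr10:103571896-103572145 (plus strand), Top2a at chr10:84473094-84473343 (minus strand) and Mki67, the proliferation marker Ki-67, at chr1:199952594-199952843 (minus strand).
Birc5: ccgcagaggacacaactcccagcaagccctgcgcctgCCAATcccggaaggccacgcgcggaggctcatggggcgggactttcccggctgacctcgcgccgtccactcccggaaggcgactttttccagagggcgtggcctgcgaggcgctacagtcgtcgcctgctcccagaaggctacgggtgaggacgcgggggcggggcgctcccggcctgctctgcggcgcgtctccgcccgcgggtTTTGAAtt
Top2a: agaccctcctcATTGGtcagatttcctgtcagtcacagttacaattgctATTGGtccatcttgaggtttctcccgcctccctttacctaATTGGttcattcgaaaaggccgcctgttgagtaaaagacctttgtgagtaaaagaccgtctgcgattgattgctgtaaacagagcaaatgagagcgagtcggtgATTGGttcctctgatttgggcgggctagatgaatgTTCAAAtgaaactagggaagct
Mki67: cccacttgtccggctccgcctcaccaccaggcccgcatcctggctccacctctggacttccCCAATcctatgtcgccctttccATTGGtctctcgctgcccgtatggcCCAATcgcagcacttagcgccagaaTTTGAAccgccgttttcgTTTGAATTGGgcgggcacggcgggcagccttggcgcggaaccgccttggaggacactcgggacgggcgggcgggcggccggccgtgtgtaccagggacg
Birc5 held 1 CCAAT box and Top2a and Mki67 held 4 each. In the Mki67 promoter a TTTGAA overlaps an ATTGG in one run of capitals.

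Transcripts of tubular transport went both ways. In the distal convoluted tubule and calcium transport list 2 of 13 were lower and 1 higher. Beside Trpv6, its relative Trpv5, the apical calcium channel of the distal convoluted and connecting tubule, ran from 4.08 to 6.79 FPKM with Enalapril (median 5.07) and from 5.24 to 17.99 with Compound 1 (median 10.2). All but 1 of 12 Compound 1 animals lay above the highest Enalapril animal (log2 difference -0.94, SE 0.15, adjusted p = 9.7e-05). S100g (calbindin D9k), which carries calcium through the cell, went the other way, from 5.02 to 9.54 FPKM with Enalapril (median 6.77) and from 2.06 to 8.15 with Compound 1 (median 4.90). Its log2 difference was 0.65 (SE 0.21, adjusted p = 0.03), and dropping Enalapril animal 2009, 2011 or 2012 or Compound 1 animal 3007, 3008 or 3105 ended the call (smallest log2 difference 0.56).

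Proximal tubule markers had positive values throughout, while 0 of 29 were called. All 29 had a positive log2 difference with a median of 0.36, 22 had an unadjusted p under 0.05, and 4 were called higher after rescaling. Slc34a1, the main phosphate carrier of the proximal tubule, was named after its values were seen. It ran from 992 to 1336 FPKM with Enalapril (median 1144) and from 477 to 1120 with Compound 1 (median 955). The log2 difference of 0.36 (SE 0.10) was under the fold threshold. Genes of fatty acid oxidation and ketogenesis, which feed these cells, had 31 of 34 positive values with a median of 0.22. In this list 2 were called higher, among them Acot12, a thioesterase of acetyl-CoA, at 3.79 ± 0.918 and 2.51 ± 1.05 FPKM (log2 difference 0.69, SE 0.24). Acot12 had an adjusted p of 0.047, and dropping any 1 of 15 animals ended its call, among them all Enalapril animals but 2103 (smallest log2 difference 0.50). Rbp4, the plasma carrier of retinol, the only call among 34 FXR and RXR targets and lipoprotein genes, ran from 41.8 to 76.5 FPKM with Enalapril (median 60.7) and from 14.5 to 54.2 with Compound 1 (median 33.6). Of 12 Compound 1 animals, 8 lay below the lowest Enalapril animal (log2 difference 0.72, SE 0.18, adjusted p = 0.0059). Scd2, a stearoyl-CoA desaturase, was the only call of 26 genes of cholesterol and fatty acid synthesis and was lower, at 15.7 ± 2.08 and 25.3 ± 4.89 FPKM (-0.67, SE 0.10).

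Both deiodinases of thyroid hormone that were called went in opposite directions, and they are named after their values were seen. Dio1, which forms active hormone in the proximal tubule, ran from 130 to 191 FPKM with Enalapril (median 164) and from 57.8 to 162 with Compound 1 (median 107). Dio3, which inactivates the hormone, ran from 0.268 to 1.27 FPKM (median 0.831) and from 0.705 to 3.12 (median 1.77). For Dio1 10 of 12 Compound 1 animals lay below the lowest Enalapril animal, and for Dio3 11 of 12 lay above the highest. The log2 differences were 0.59 (SE 0.12, adjusted p = 0.0012) and -1.16 (SE 0.25, adjusted p = 0.0018). Dio1 stood just past the fold threshold, and dropping Enalapril animal 2005, 2008, 2009 or 2011 or any 1 of 6 Compound 1 animals (3001, 3007, 3008, 3009, 3012 and 3105) took it below (smallest 0.51).

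Genes of nitric oxide and cyclic GMP signalling, the route on which Compound 1 acts, held 0 calls among 21, with a median of -0.13. Of these 9 had an unadjusted p under 0.05. Over all genes 1.89% were called lower and 0.326% higher, so 0 calls among 21 says little about these genes. The sGC subunits Gucy1a1 and Gucy1b1 were at 10.9 ± 1.78 and 6.30 ± 1.37 FPKM with Enalapril and at 13.2 ± 2.33 and 7.97 ± 1.62 FPKM with Compound 1. Their log2 differences were -0.27 (95% interval -0.51 to -0.03, adjusted p = 0.13) and -0.33 (-0.58 to -0.09, adjusted p = 0.055). Set beside Vehicle, Gucy1a1 stood at -0.45 with Enalapril and -0.18 with Compound 1, and Gucy1b1 at -0.39 and -0.06. The subunit gene Gucy1a2 did not reach the expression filter. The guanylin peptides, which act on a different, membrane-bound guanylate cyclase and were named after their values were seen, were lower with Enalapril. Guca2b (uroguanylin) ran from 13.1 to 34.4 FPKM with Enalapril (median 17.8) and from 15.3 to 86.5 with Compound 1 (median 39.1). Guca2a (guanylin) ran from 18.2 to 30.4 FPKM (median 24.7) and from 26.0 to 64.7 (median 37.7). Most Compound 1 animals, 8 and 11 of 12, lay above the highest Enalapril animal (log2 differences -0.92, SE 0.22, and -0.66, SE 0.11). Guca2a lost its call after rescaling and without Compound 1 animal 3001 (-0.60).

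Other regulators of renal vessels and hormones also differed. Ramp1, the coreceptor that lets the calcitonin receptor-like receptor bind calcitonin gene-related peptide, a vasodilator, ran from 2.90 to 6.48 FPKM with Enalapril (median 4.98) and from 5.98 to 12.8 with Compound 1 (median 9.96). It was the only call in 12 genes of the endothelin and CGRP families, with 11 of 12 Compound 1 animals above the highest Enalapril animal (log2 difference -1.04, SE 0.14, adjusted p = 6.8e-06). Ptgs2, the inducible prostaglandin synthase of the macula densa and the medullary interstitium, named after its values were seen, ran from 1.36 to 2.21 FPKM with Enalapril (median 1.71) and from 0.762 to 1.46 with Compound 1 (median 0.952). For this gene 11 of 12 Compound 1 animals lay below the lowest Enalapril animal (log2 difference 0.76, SE 0.17, adjusted p = 0.002). Areg, a ligand of the EGF receptor, was at 2.46 ± 0.854 and 1.58 ± 0.558 FPKM (0.61, SE 0.20, adjusted p = 0.034), the only call among 11 genes of the EGF family and its receptors, and dropping Enalapril animal 2001 or 2010 or Compound 1 animal 3007, 3008, 3009, 3012 or 3103 ended it (smallest log2 difference 0.52).

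Of the genes that the study names with its RNA-Seq data, Matn1 and Cd163 differed between the single drugs, both lower with Enalapril. The study picked them from the same animals, so they are not independent evidence. Matn1, a matrix protein of cartilage, ran from 3.58 to 5.40 FPKM with Enalapril (median 4.29) and from 4.48 to 9.70 with Compound 1 (median 7.34). The groups overlapped in 2 of 12 Compound 1 animals, the other 10 lying above the highest Enalapril animal (log2 difference -0.69, SE 0.16, adjusted p = 0.0039). Egf, a growth factor made in the distal nephron, was at 64.5 ± 11.3 and 64.3 ± 16.9 FPKM, with a log2 difference of 0.03 and a 95% interval of -0.30 to 0.36. Esrrb, an orphan nuclear receptor, Slc23a3, a carrier of the ascorbate transporter family, Pgam2, a phosphoglycerate mutase, and Fa2h, a fatty acid hydroxylase, had log2 differences of -0.16, -0.13, -0.32 and -0.16 and adjusted p from 0.14 to 0.56. Their 95% intervals reached down to -0.48, -0.35, -0.61 and -0.39 and up to 0.16, 0.09, -0.03 and 0.08.

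The remaining lists held few or no calls. With 1.89% of all genes called lower and 0.326% higher, 0 calls in lists of this size says little about their members. Podocyte (14 tested), endothelial (16), intercalated cell (15), thick ascending limb (13) and claudin (16) genes held 0 calls, and principal cells 1 of 17, Aqp4. Among 27 NRF2 targets, 42 genes of glutathione metabolism, 28 of glycolysis and gluconeogenesis, 17 of tryptophan breakdown, 21 of the unfolded protein and heat shock responses, 18 of the hypoxia response, 16 of the clock and 21 immediate early genes 0 were called, with medians from -0.17 for immediate early genes to 0.19 for tryptophan breakdown. The 13 mitochondrially encoded genes were all positive, with a median of 0.13, and 0 were called or had an unadjusted p under 0.05. Markers of adipocytes (4) and of erythrocytes and plasma (6) held 0 calls as well, with 2 and 3 of them at an unadjusted p under 0.05. The erythrocyte and plasma list had the lowest median of the 37 lists, -0.70. Its genes ran from -1.96 to 0.20, 3 negative and 3 positive. Its summed level ran from 1515 to 4155 FPKM with Enalapril (median 2673) and from 1337 to 4764 with Compound 1 (median 1987). The part of blood in the results was not tested.

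Marker transcripts of the inner medulla and the proximal tubule moved with the groups. The mean log2 level of 6 inner medulla markers ran from 2.61 to 3.39 with Enalapril (median 3.01) and from 3.07 to 3.88 with Compound 1 (median 3.48), and all 6 had a negative log2 difference. The mean of the proximal tubule markers ran from 7.45 to 7.77 with Enalapril (median 7.60) and from 6.47 to 7.64 with Compound 1 (median 7.33). These marker means were thus lower and higher with Enalapril, respectively, with overlap in both. Among the inner medulla markers 2 were themselves called lower, among them Aqp4, a basolateral water channel of the collecting duct, at 3.61 ± 0.908 and 5.68 ± 0.974 FPKM.

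**Figure D4:**
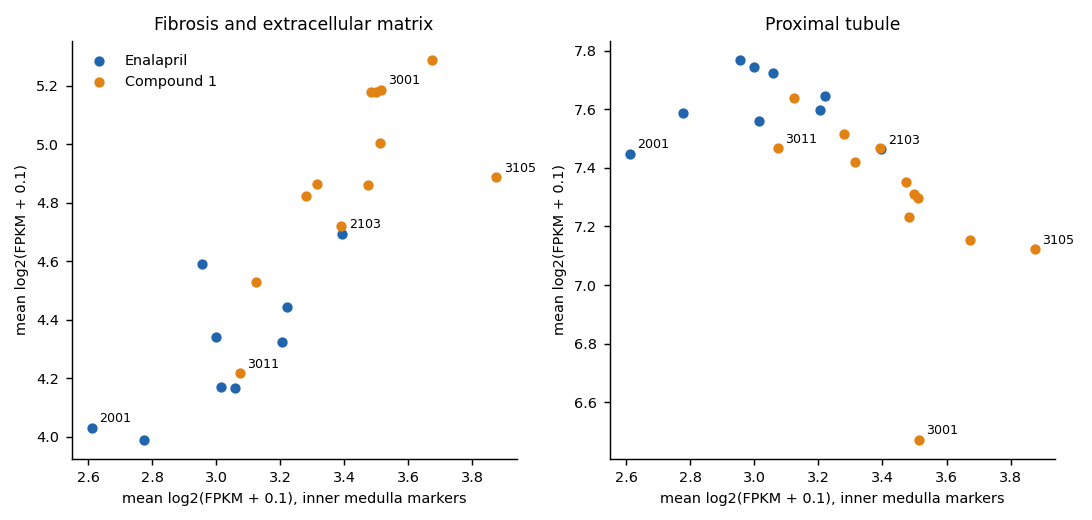
Mean log2(FPKM + 0.1) of the fibrosis and matrix list (left) and of the proximal tubule markers (right) in each of the 9 Enalapril and 12 Compound 1 animals, against the mean of the 6 inner medulla markers (x axis). Compound 1 animal 3011, at 3.07 and 4.22 on the left, lies among the Enalapril animals, and Compound 1 animal 3001 stands apart on the right at 6.47.

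With the inner medulla mean as a covariate in the fit, 7 genes were called lower with Enalapril (0.0519%) and 2 higher (0.0148%), and 8 of these 9 were among the calls without it. The lower genes included Tnc, Cadm4, Sctr, Matn1, Tnni1 (a slow muscle troponin subunit) and LOC299282. The higher ones were AABR07038021.1 and Oas2, a sensor of double-stranded RNA that interferon induces, which was not called without the covariate. Tnc kept a log2 difference of -0.76 (adjusted p = 0.0102), and Matn1 had -0.91 (adjusted p = 0.0348). The covariate shares animals and groups with the contrast, so that regional sampling and a drug effect on these markers cannot be told apart. With rescaling and the covariate together, 29 genes were lower and 11 higher, an alternative chosen after seeing the data. The called genes of the naming rule and those named after their values were seen were 74 together. After rescaling alone, 61 of these 74 were still called, and the 13 lost included Krt18, Fga, Mcm5, Aqp4, Tagln, Scd2, Havcr1, Mki67, Il1b, Guca2a, Col1a1 and Timp1.

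The Combination and Vehicle groups share no animal with the single drug groups, and they show the same genes with both drugs against none. All 44 animals entered the expression filter and the estimate of spread behind the single drug calls, so the calls of both comparisons are not fully independent. In these 23 animals 861 genes were called lower (6.39%) and 134 higher (0.994%) in the Combination. After median-of-ratios rescaling 311 were lower (2.31%) and 337 higher (2.5%), so that the balance turned around, and the median of all genes went from -0.18 to -0.0086. Of the 255 genes lower with Enalapril than with Compound 1, 112 were lower in the Combination than in Vehicle, which is 43.9% of the former and 13.01% of the latter list, and 1 was higher. A negative value was found for 249 of the 255, against 77.6% of all genes, and the median was -0.57 against -0.18. Of the 44 higher genes, 8 were higher in the Combination (18.2% of the former, 5.97% of the latter list) and 2 were lower, with a median of 0.22. With both comparisons rescaled, an alternative chosen after seeing the data, 50 of 155 lower genes were lower in the Combination (32.26% of the former, 16.08% of the latter list), 144 had a negative value, against 51.44% of all genes, and 27 of 74 higher genes were higher (36.49% and 8.012%). Across all tested genes, which are not independent replicates, the log2 differences had Pearson r = 0.43 and Spearman rho = 0.47.

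**Figure D5:**
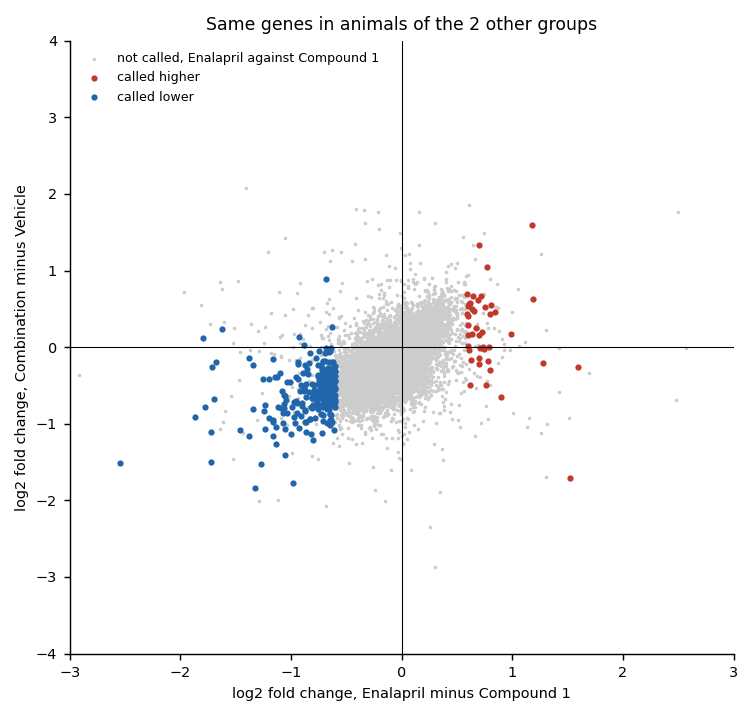
Log2 fold change of each tested gene in the Combination minus Vehicle (y axis) against Enalapril minus Compound 1 (x axis), measured in different animals. Blue points are genes called lower with Enalapril, of which 249 lie below 0 on the y axis, and red points are genes called higher, of which 29 lie above 0.

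Trpv6, Clu, Lcn2, Spp1, C4b, Cfi, Ramp1, Guca2b and Reg3b, an antibacterial lectin named after its values were seen, were among the genes lower in the Combination than in Vehicle too, Ramp1 not after rescaling (-0.69 went to -0.52). Trpv6 was at 5.33 ± 2.59 FPKM in Vehicle and 1.90 ± 1.11 in the Combination (log2 difference -1.50, adjusted p = 0.000185), and Guca2b at 40.1 ± 13.3 and 19.6 ± 7.71 FPKM (-1.05). Other genes were not called lower there, among them Tnc (log2 difference -0.42), Cadm4 (-0.39), Sctr (-0.34), Vim (-0.43) and Thbs1 (-0.07). Cd163 was at 0.719 ± 0.384 and 0.746 ± 0.173 FPKM (0.14, adjusted p = 0.608), Aqp4 at 4.29 ± 1.10 and 4.10 ± 0.886 FPKM (-0.05), and Matn1 was higher in the Combination, at 3.29 ± 1.00 and 6.10 ± 1.83 FPKM (0.88, adjusted p = 0.000395). Egf was also higher there (39.2 ± 12.6 and 87.6 ± 17.6 FPKM, log2 difference 1.20). Of the genes higher with Enalapril than with Compound 1, Rbp4 (0.67) and Dio1 (0.69) were called higher there too. Prima1 (-0.21) and Ptgs2 (-0.49) had negative values there and were not called.

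Against Vehicle, each single drug shares its own animals with the comparison of the drugs, so the values are given only side by side. The median log2 difference from Vehicle was -0.74 with Enalapril and 0.04 with Compound 1 over the 255 lower genes, and 0.49 and -0.23 over the 44 higher genes. Over all genes it was -0.15 and -0.07. Individual genes differed in this respect. Clu stood at -1.10 with Enalapril and -0.04 with Compound 1, Ramp1 at -1.08 and -0.04, and Rbp4 at 0.86 and 0.14. Cd163 stood at -0.02 and 0.91, Matn1 at 0.44 and 1.13, Prima1 at 0.29 and -0.99, and Ptgs2 at 0.17 and -0.59. Tnc stood at -0.76 and 0.44, and Thbs1 at -0.35 and 0.34.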

How the data were processed

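The authors sequenced stranded mRNA libraries of 44 kidney pieces and deposited FPKM of 32883 entries; the submitters' processing notes name build rn6. Aligner and counter were not given in the sources used here. In the paper's methods the authors tested raw counts with DESeq2; the deposited FPKM are not counts, so no count model was used. The table also had 2 columns without values, which were dropped.

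FPKM were transformed to log2(FPKM + 0.1) and fitted with limma 3.58.1 (R 4.3.3) with a mean-variance trend, on all 4 groups for Enalapril minus Compound 1 and on 2 groups for the Combination against Vehicle. Fold changes are on this scale, which understates changes of low genes. The Benjamini-Hochberg adjustment ran over the 13482 genes that passed 1 FPKM in 9 or more animals. Each library is a different animal. The log2 level of a marker list is the mean over its tested genes. FPKM give no read totals; relative depth was read from ratios of low FPKM values between libraries, and no counting interval can be given. The test was run on simulated data.

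Named are up to 8 higher and 8 lower genes of largest fold change, up to 4 calls per list, the genes the study names and the targets and urinary markers. Further genes were named after their values were seen. Beside those said to be so, these were Cadm4, Fgg, Slc34a1, Col1a1, Il1b, Plk1, Mki67, Ube2c, Oas2, Tnni1, LOC299282 and AABR07038021.1. The members and lists were chosen with earlier results of these data known. Some genes of this rule, with 1 list, are not reported here, so that 7 of the largest higher genes are named. A symbol on several entries was represented by the entry with the highest mean. Promoters are RefSeq sequences of build GRCr8, matched by symbol; no coordinates of rn6 were used. Alternatives were pseudocounts of 1 and 0.01, no filter, FPKM above 5, median-of-ratios and quantile scaling, removal of mitochondrial transcripts, no fold threshold, sample weights, the inner medulla covariate, other groups in the fit, and leaving out animals.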

Additional observations from a re-analysis of the deposited data

Results flagged for a closer look

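Of 89 values examined for a single animal far from the others of the Enalapril group (9 animals), 5 stood out by Dixon's criterion, which by chance picks out about 1 group in 20. Enalapril animal 2103 was far above the next animal for Aqp4 (5.755 FPKM, next 4.14), Fgg (2.783 FPKM, next 1.77), Spp1 (3059 FPKM, next 2427) and Top2a (1.542 FPKM, next 0.966). Without this animal 340 genes were lower and 47 higher with Enalapril than with Compound 1. Enalapril animal 2005 was far above the next animal for Olfr1442 (2.887 FPKM, next 1.74), and without it the call of Olfr1442 was lost.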

How the results depend on the processing

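Counts are given as higher and lower genes, for Enalapril against Compound 1 (44 and 255 as reported) and then for the Combination against Vehicle (134 and 861). They were 18 and 115, and 84 and 356, with log2(FPKM + 1); 22 and 121, and 89 and 389, with FPKM above 5; 74 and 155, and 337 and 311, with median-of-ratios rescaling; 90 and 137, and 324 and 223, with quantile normalization. With mitochondrial transcripts removed they were 69 and 183, and 232 and 512; with no fold threshold 351 and 1471, and 860 and 5293; with the inner medulla covariate 2 and 7, and 45 and 411. Alternatives chosen after seeing the data gave 11 and 29 with rescaling and the covariate together, and 23 and 177 without Compound 1 animals 3001 and 3105. Leaving out 1 animal gave 22 to 61 and 177 to 369, and 91 to 168 and 671 to 1055. The cause of these moves was not tested, except that stricter filters test fewer genes. The other alternatives stayed within 1.5 times. Marker means of the inner medulla (-0.45 to -0.36 when 1 animal was left out) and proximal tubule (0.25 to 0.36), and the mitochondrial share (1.27 to 3.79 percentage points), kept their direction. Egf, not called, turned to -0.26 with the covariate, -0.27 with rescaling and the covariate, and -0.069 without animals 3001 and 3105, and ran from -0.038 to 0.080 when 1 animal was left out. Cst3, not called, became 0.021 with rescaling and the covariate. No called gene of the naming rule, or named after its values were seen, changed direction. With log2(FPKM + 1) 26 of 74 lost their call. Glp1r, Ptgs2, Cd163, Matn1 and the cell division genes Top2a, Ccna2, Mcm5, Ccnb1, Plk1, Mki67 and Ube2c were among them. With the covariate 66 of 74 lost it. No paired analysis was possible because each animal number occurs in 1 group. Absolute depth is unknown, so low genes carry an unknown counting error.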
